A study of Homo sapiens with 8 samples.

Results

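MYC network transcription factors are a set of proteins that meet at the same short DNA site, the E-box. The 10 genes described here were chosen by name, with no threshold on their values but with earlier results of these data known: the drivers MYC, MYCN and MYCL, their partner MAX, the antagonists MXD1, MXI1, MXD3, MXD4 and MNT, and the large MAX partner MGA. All 10 were found among the 58884 genes of the count table, and 8 of them had enough reads to be tested. They were followed in U87 cells, an established human glioblastoma line, in 4 groups of 2 RNA-seq libraries: DMSO (the solvent control), long-term AsiDNA, belinostat, and long-term AsiDNA with belinostat, called the combination below. Belinostat, an inhibitor of histone deacetylases, was given at 1 µM for 24 h. AsiDNA is a short double-stranded DNA that mimics a DNA break. Neither its dose nor its duration is stated in the sources used. The labels name MTU87 and LTAU87 cells without saying which library holds which, and all cells share 1 line and a medium with 10% serum. Nothing says that the 2 libraries of a group came from separate cultures, so the p-values measure the spread between these libraries, which may be technical.

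MYC binds DNA as a dimer with MAX and activates genes of growth, ribosome building and the cell cycle. MXD proteins, MXI1 (also called MXD2) and MNT compete for MAX, occupy the same sites and recruit the SIN3 corepressor with its histone deacetylases, so the balance of the dimers matters as much as MYC alone. MGA joins MAX within a variant Polycomb repressor complex. In many tumours MYC is high, and in glioma it is tied to growth of stem-like cells.

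The core of the shared binding site is CACGTG, which reads the same on both strands. RefSeq promoter windows (GRCh38.p14, from 250 bases before to 50 after a start) were matched for 9 of the 10 members, in 14 windows, with none for MYC. CACGTG stood in 2 of these 14 windows, those of MXD4 and MNT, or 14.3%, where 7.26% of all 35116 windows held it. Of 53 MYC-activated target genes with a window, 29 held the core (54.7%), against 8.77% of 27305 genes. The sites below show the core in capitals with 10 bases on each side, 5′ to 3′ on the gene's strand, for both members and for the 4 listed targets whose site lay upstream of the start and outside annotated exons.
MXD4: gccgggccacCACGTGctgttgctaa
MNT: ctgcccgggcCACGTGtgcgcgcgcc
SRM: ggccgggcccCACGTGgcccctggag
ODC1: gggccccgggCACGTGtgcggcgcgc
UNG: aaatagcctcCACGTGttcaaaatag
HK2: ccggcgagagCACGTGgagagaatcg
The MXD4 site lies at chr4:2262332-2262357 on the minus strand, 238 bases before the start, and the MNT site at chr17:2401238-2401263 on the minus strand, 193 bases before it. The SRM site lies at chr1:11060202-11060227 (minus), the ODC1 site at chr2:10448026-10448051 (minus), the UNG site at chr12:109097930-109097955 (plus) and the HK2 site at chr2:74835011-74835036 (plus). A match of letters is a description of the sequence and does not show binding.

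Libraries held between 6057394 and 9699637 counts, so 3 counts equalled between 0.309 and 0.495 CPM, the count scaled to a common library size. The line's markers were checked: VIM, CD44 and NES were detected in all libraries, and CDKN2A, CDKN2B and MTAP, which lie in a region known to be deleted in U87, had 0 counts in all 8. The astroglial genes GFAP, S100B and AQP4 had at most 5 counts and SOX2 and SOX10 had 0. These defining markers of the labelled brain tissue were therefore absent or nearly so. The list of 10 line markers also holds OLIG2 and PDGFRA, and 5 of the 10 were tested. Summed CPM of the list lay between 4921 and 7403 with DMSO and between 7463 and 7472 with AsiDNA. The sum lay between 3069 and 3138 with belinostat and between 6434 and 6448 with both agents. Leukocyte markers PTPRC, CD3E and AIF1 had at most 1 count. Of 5 neuron markers, 3 (SYP, SNAP25 and MAP2) rose with belinostat in both comparisons, and the list summed to between 41.3 and 60.3 CPM with DMSO, 40.7 and 44.0 with AsiDNA, 192 and 201 with belinostat and 171 and 182 with both agents. RBFOX3 and STMN2, which define neurons, stayed at 0 or 1 count. The rise was not particular to neuron markers. A list of 6 endothelial and epithelial markers summed to between 5.96 and 6.14 CPM with DMSO and 4.83 and 7.86 with AsiDNA. It summed to between 21.3 and 25.3 with belinostat and 15.9 and 18.8 with both agents. Of its 2 tested genes, 1 rose in both belinostat comparisons. The nuclear RNAs MALAT1 and NEAT1 took 0.911% and 2.81% of counts in the DMSO libraries, 0.753% and 0.688% in AsiDNA, 12.2% and 13.4% in belinostat, and 3.12% and 2.06% in the combination. The DMSO libraries also differed most from each other: among well-expressed genes (mean log2 CPM over 4), 11.1% were more than 1.5-fold apart between them, against at most 0.786% in the other groups. The part of these differences in the results below was not tested.

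Levels below are CPM scaled by TMM factors, each library's values in the order replicate 1, replicate 2. Changes are log2 fold changes with their standard error from edgeR's quasi-likelihood test over all 14741 tested genes, and a change was called at a Benjamini-Hochberg adjusted p under 0.05. The plot of levels by library shows all 8 tested members.

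**Figure D1:**
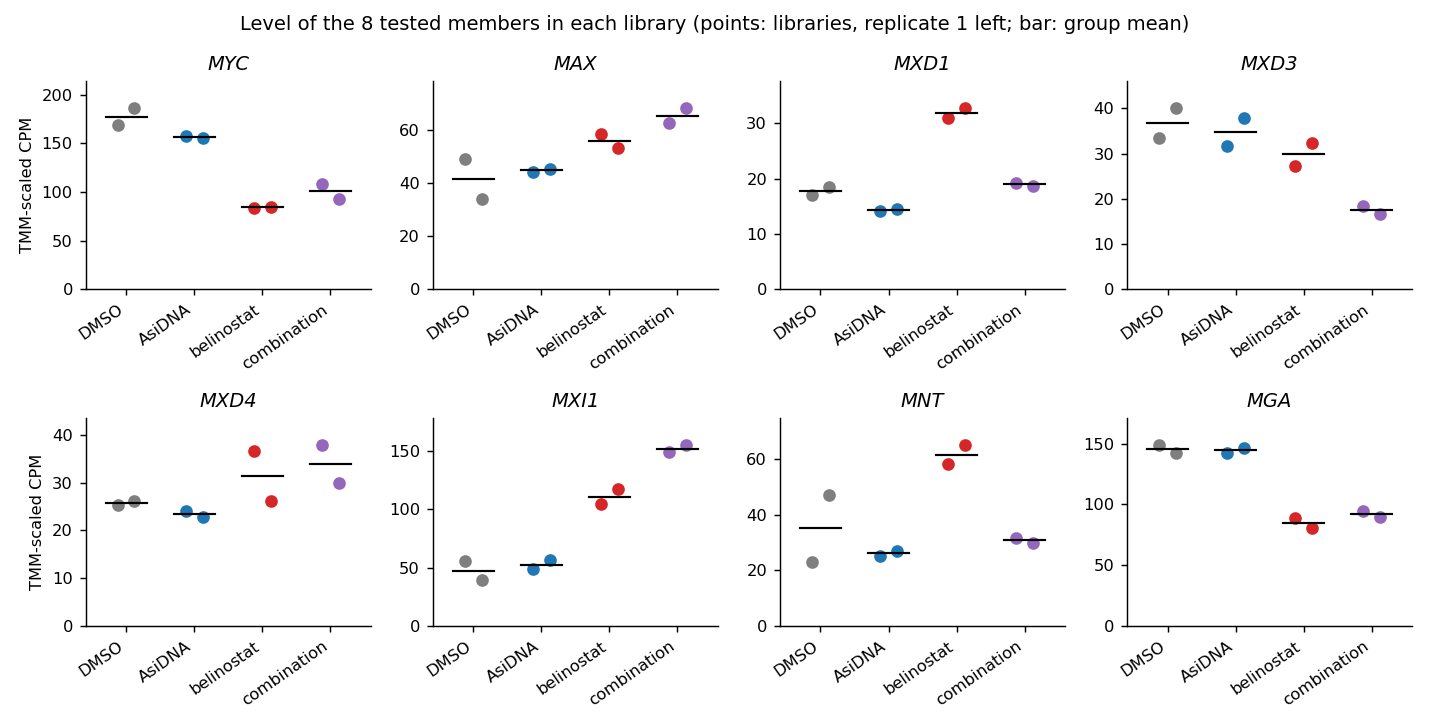
Level of each tested member (TMM-scaled CPM, vertical axis from 0) in the 4 groups; each point is 1 library, replicate 1 on the left, and each bar is the mean of 2 libraries. MYC and MGA were lower, and MXI1 higher, in every library with belinostat than in every library without it, while the 2 DMSO libraries stood apart for MNT (23.1 and 47.1).

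MYC (ENSG00000136997, chr8:127735434-127741434, plus strand, GRCh38) fell with belinostat. It stood at 169 and 186 CPM with DMSO, 157 and 156 with AsiDNA, 83.4 and 85.0 with belinostat and 109 and 92.4 with both agents. All 4 libraries with belinostat were below all 4 without it. In bulk RNA, fewer cells with MYC RNA and less of it per cell cannot be told apart. Belinostat lowered MYC by a log2 fold change of -1.07 ± 0.12 against DMSO (edgeR adjusted p = 8.79e-06) and of -0.64 ± 0.12 when added to AsiDNA (edgeR adjusted p = 0.000964). Combination libraries were above both belinostat libraries, but the difference of 0.25 ± 0.13 did not pass the test (edgeR adjusted p = 0.116, 95% interval -0.02 to 0.52). It passed when DMSO replicate 1 (edgeR adjusted p = 0.00949) or DMSO replicate 2 (0.0110) was left out and in a fit of these 2 groups alone (0.0455), with values of 0.28, 0.27 and 0.24.

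The other drivers were at or near 0. MYCN (ENSG00000134323, chr2:15940564-15947007), the paralogue amplified in neuroblastoma, had 0 counts in all 8 libraries, which allows at most 3 counts, or 0.309 to 0.495 CPM, in each. MYCL (ENSG00000116990, chr1:39895426-39902256), the paralogue named for lung cancer, had between 3 and 9 counts per library. Summed over 2 libraries, MYCL had 12 counts with DMSO, 8 with AsiDNA, 10 with belinostat and 7 with both agents, and the belinostat to DMSO ratio was 1.06, with a counting interval of 0.410 to 2.67. No difference in MYCL was detectable at this depth, and MYC was the driver with a measurable level in these cells. The long noncoding RNA PVT1, whose gene lies beside MYC, did not follow it: 40.2 and 85.6 CPM with DMSO, 37.8 and 33.5 with AsiDNA, 72.0 and 75.9 with belinostat and 35.7 and 33.9 with both agents. Belinostat against DMSO gave 0.23 ± 0.24 for PVT1 (edgeR adjusted p = 0.431) with the 2 DMSO libraries on either side of the belinostat ones, and combination against AsiDNA gave -0.04 ± 0.26 (0.925).

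MAX (ENSG00000125952, chr14:65006174-65102695, minus strand), the partner the other members share, rose while MYC fell. Its level was 48.9 and 33.9 CPM with DMSO, 44.1 and 45.4 with AsiDNA, 58.5 and 53.2 with belinostat and 62.4 and 68.1 with both agents. All libraries with belinostat were above all without it, although the DMSO pair spanned a wide range. The change was 0.44 ± 0.16 against DMSO (edgeR adjusted p = 0.0347) and 0.55 ± 0.16 in combination against AsiDNA (edgeR adjusted p = 0.0155). The first of these calls was lost in 14 of 17 other settings, with values from 0.17 to 0.72 and adjusted p up to 0.301, and the value was 0.17 ± 0.12 when DMSO replicate 2 was left out and 0.72 when DMSO replicate 1 was. The second was lost in 4 of 17, at the stricter threshold of 0.01, without AsiDNA replicate 1 (adjusted p = 0.114) or 2 (0.0836), and without combination replicate 2 (0.124). MAX lies over FNTB, a farnesyltransferase subunit on the opposite strand, which fell in both comparisons (-0.85 ± 0.21 and -0.77 ± 0.22), opposite to MAX.

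Belinostat changed the antagonists in different directions, and MXI1 rose most. MXI1 (ENSG00000119950, chr10:110207605-110287365, plus strand) stood at 55.4 and 39.7 CPM with DMSO, 48.5 and 56.3 with AsiDNA, 104 and 117 with belinostat and 149 and 155 with both agents. The DMSO and AsiDNA libraries overlapped, and no library with belinostat overlapped one without. The change was 1.22 ± 0.16 against DMSO (edgeR adjusted p = 2.31e-05) and 1.54 ± 0.16 in combination against AsiDNA (edgeR adjusted p = 6.27e-06). A processed pseudogene within MXI1 on its strand, with at most 26 counts in any library, rose against DMSO (3.03 ± 0.60). The pseudogene was not called in combination against AsiDNA (0.77 ± 0.86) and was lower in combination against belinostat (-2.52 ± 0.61). Its part in the MXI1 values was not tested. MXI1 was also higher in the combination than in belinostat alone, by 0.46 ± 0.15 (edgeR adjusted p = 0.0274). That last call was lost without belinostat replicate 1 (adjusted p = 0.119) or combination replicate 2 (0.0986).

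MXD1 (ENSG00000059728, chr2:69897688-69942945, plus strand), the founding MYC antagonist, often induced as cells differentiate, rose in belinostat against DMSO. It stood at 17 and 18.5 CPM with DMSO, 14.1 and 14.6 with AsiDNA, 31.0 and 32.7 with belinostat and 19.2 and 18.7 with both agents. Belinostat against DMSO gave 0.84 ± 0.15 (edgeR adjusted p = 0.000384). Combination against AsiDNA gave 0.40 ± 0.16, which was not called (edgeR adjusted p = 0.0638), and the combination was below belinostat by -0.75 ± 0.16 (edgeR adjusted p = 0.00237). The belinostat against DMSO and combination against belinostat calls held under all 17 other settings. The value of 0.40 was called in 3 of 17, without DMSO replicate 1 (0.0332), without DMSO replicate 2 (0.0339) and in a fit of these groups alone (0.0245). The interaction for MXD1 was -0.44 and not called (edgeR adjusted p = 0.271). MXD1 overlaps the splicing gene SNRNP27 on its strand, which gave -0.33 ± 0.16 against DMSO (not called) and fell in combination against AsiDNA (-0.50 ± 0.17).

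MNT (ENSG00000070444, chr17:2384060-2401118, minus strand), a broadly expressed antagonist whose promoter holds the CACGTG printed above, took a similar course with less certainty. It stood at 23.1 and 47.1 CPM with DMSO, 25.2 and 26.9 with AsiDNA, 58.1 and 65.0 with belinostat and 31.5 and 29.96 with both agents. Both belinostat libraries were above all others, but the 2 DMSO libraries differed about as much as the groups did. The change was 0.81 ± 0.23 against DMSO (edgeR adjusted p = 0.00954). Leaving out DMSO replicate 1 gave 0.37 ± 0.13 (0.0117) and leaving out DMSO replicate 2 gave 1.38 ± 0.15 (1.70e-12), and the call was lost without belinostat replicate 1 (0.0694) or 2 (0.131), with library size alone (0.0550) and in a fit of these groups alone (0.0719). DMSO replicate 2, with the higher MNT, also had the larger MALAT1 and NEAT1 share, 2.81% against 0.911%. Combination against AsiDNA gave 0.24 ± 0.25 (edgeR adjusted p = 0.477, 95% interval -0.30 to 0.78), and the combination was below belinostat by -1.0 ± 0.24 (edgeR adjusted p = 0.00528), a call lost without belinostat replicate 2 (0.0742) or combination replicate 2 (0.0703).

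MXD3 (ENSG00000213347, chr5:177301461-177312757, minus strand) is the MXD member known to be expressed in S phase and proliferating precursors, and it went the other way. It stood at 33.5 and 40.1 CPM with DMSO, 31.8 and 37.8 with AsiDNA, 27.3 and 32.3 with belinostat and 18.5 and 16.8 with both agents. The combination was below every other library. Belinostat against DMSO gave -0.31 ± 0.16, which was not called (edgeR adjusted p = 0.115), combination against AsiDNA fell by 0.98 ± 0.17 (edgeR adjusted p = 0.000448), and the combination was below belinostat by -0.76 ± 0.17 (edgeR adjusted p = 0.00403). The last call was lost without belinostat replicate 2 (0.0655) or combination replicate 2 (0.0745). The value of -0.31 was called in 3 of 17 other settings, as -0.45 without DMSO replicate 1 (0.00966), -0.45 with library size alone (0.0397) and -0.47 without a filter (0.0305). Leaving out 1 library moved it between -0.20 (without DMSO replicate 2) and -0.52 (without belinostat replicate 2). The difference between belinostat's effects with and without AsiDNA was -0.67 ± 0.23 for MXD3 (unadjusted p = 0.0129, edgeR adjusted p = 0.134). MXD3 shares its strand with RAB24 over 2284 bases and lies over PRELID1 on the other strand, and the strand setting of the counting is not given here, so its counts may include reads of either. RAB24, a small GTPase, rose in belinostat against DMSO (1.06 ± 0.31) and PRELID1 fell (-0.65 ± 0.15), where MXD3 was not called. Neither neighbour was called in combination against AsiDNA (0.58 ± 0.35 and 0.03 ± 0.14), where MXD3 fell. Where MXD3 was lower in combination against belinostat, RAB24 was lower too (-0.995 ± 0.32, edgeR adjusted p = 0.0225) and PRELID1 was higher (0.94 ± 0.15, 0.000588). The part of these neighbours in the MXD3 values was not tested.

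MXD4 (ENSG00000123933, chr4:2247432-2262294, minus strand) changed little. It stood at 25.4 and 26.2 CPM with DMSO, 24.0 and 22.8 with AsiDNA, 36.6 and 26.3 with belinostat and 37.9 and 29.96 with both agents. Belinostat replicate 2 was barely above the DMSO libraries. Belinostat against DMSO gave 0.30 ± 0.18 (edgeR adjusted p = 0.169) and turned to -0.06 without belinostat replicate 1, and combination against AsiDNA gave 0.53 ± 0.18 (edgeR adjusted p = 0.0311), a call lost in 7 of 17 other settings, the lowest value being 0.35 without combination replicate 1 (adjusted p = 0.274).

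MGA (ENSG00000174197, chr15:41621224-41773081, plus strand), the largest protein of the network, fell alongside MYC. Its level was 149 and 143 CPM with DMSO, 143 and 146 with AsiDNA, 88.6 and 80.6 with belinostat and 94.6 and 89.9 with both agents. Libraries with and without belinostat did not overlap. The change was -0.78 ± 0.12 against DMSO (edgeR adjusted p = 8.13e-05) and -0.65 ± 0.12 in combination against AsiDNA (edgeR adjusted p = 0.000592). MYC, MXI1 and MGA kept their call and direction in both comparisons under all 17 other settings.

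Over the network, 4 of the 8 tested members rose and 2 fell in belinostat against DMSO, where 29.8% of all tested genes rose and 27.6% fell (57.4% in either direction). In combination against AsiDNA 3 rose and 3 fell, where 21.7% of tested genes rose and 21.2% fell (42.9% in either direction). With libraries scaled by their size alone, the median of all genes moved from 0.06 to -0.08 in the first comparison and from 0.02 to -0.12 in the second, and the split of calls moved from 4395 higher and 4071 lower to 3589 and 4799 in the first, and from 3199 higher and 3120 lower to 2568 and 3961 in the second. The members' own split became 2 higher and 3 lower in each comparison. The 4 that rose became 2 without belinostat replicate 1 or 2, and the 3 that rose became 1 without AsiDNA replicate 1 or 2. MAX and MXI1 rose, and MYC and MGA fell, in both comparisons. Among all 14741 tested genes 2471 rose in both and 2601 fell in both. The median change of the 8 members was 0.37 against 0.06 over all genes, and 0.32 against 0.02. Libraries of the 2 groups did not overlap for all 8 members in either comparison, and the same held for 76.6% and 77% of all tested genes. Each comparison has its own 4 libraries, and their values are drawn side by side in the plot of belinostat effects.

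**Figure D2:**
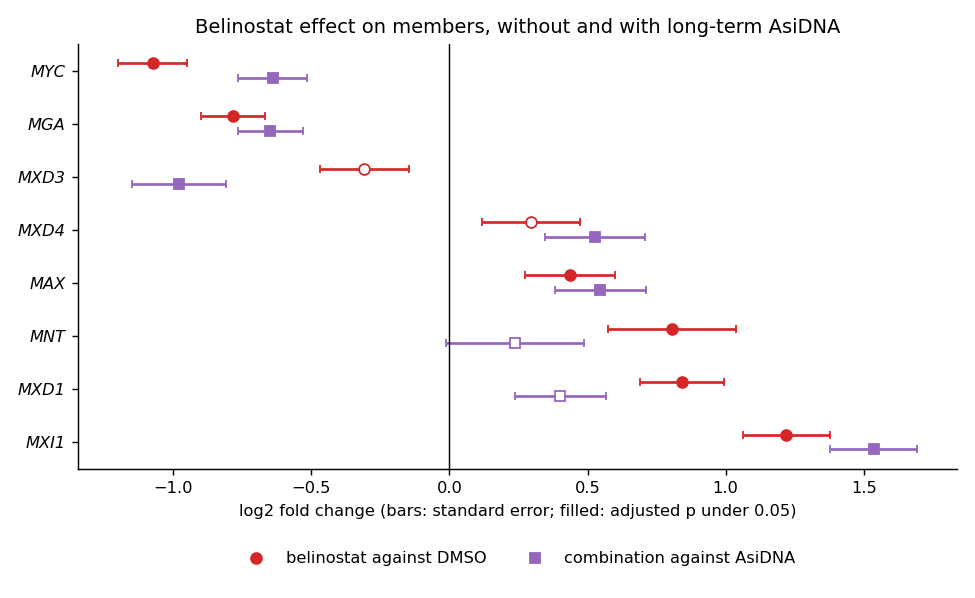
Log2 fold change (horizontal axis) of each tested member in belinostat against DMSO (circles) and in combination against AsiDNA (squares); bars are standard errors and filled marks have an edgeR adjusted p under 0.05. MXI1, at 1.22 and 1.54, is the highest member in both comparisons, while the lowest is MYC (-1.07) in the first and MXD3 (-0.98) in the second.

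Levels of different genes were compared per kb of exon, since MGA has 17651 exon bases and MYC 3001. In DMSO the order was MYC (59.1 ± 4.1 CPM per kb, SD, n = 2), MXI1 (10.3), MAX (9.35), MGA (8.26), MXD3 (7.14), MNT (4.02), MXD4 (3.65) and MXD1 (2.79). The libraries of MAX overlapped those of MXI1, MGA and MXD3, and those of MNT overlapped those of MXD4 and MXD1. In AsiDNA the order differed only in MXD4 (3.32) standing above MNT (2.99), with no neighbours overlapping. With belinostat MYC (28.1) and MXI1 (24.0 ± 2.0, SD, n = 2) came close, then MAX (12.6), MNT (7.05), MXD3 (5.79), MXD1 (5.01), MGA (4.79) and MXD4 (4.45), the last 3 overlapping. In the combination MYC (33.5 ± 3.8) and MXI1 (33.0 ± 0.98, SD, n = 2) overlapped. Below them stood MAX (14.7), MGA (5.23), MXD4 (4.81), MNT (3.52), MXD3 (3.42) and MXD1 (2.98), with overlaps between MGA and MXD4 and between MNT and MXD3.

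Per kb of exon, MYC stood above the summed MXD, MXI1, MNT and MGA levels without belinostat and below them with it. MYC stood at 1.57 and 1.70 times that sum in the DMSO libraries, 1.57 and 1.42 in AsiDNA, 0.560 and 0.538 in belinostat, and 0.680 and 0.585 in the combination. The sum itself was 35.9 and 36.5 CPM per kb in DMSO and 49.7 and 52.6 in belinostat, so both a lower MYC and a higher sum entered the ratio. MXI1 made up 33.5% and 23.6% of the sum with DMSO, 31.6% and 33.5% with AsiDNA, 45.5% and 48.4% with belinostat and 60.6% and 64.0% with both agents. MXD3 made up 18.1% and 21.3% in DMSO and 6.75% and 6.18% in the combination. These ratios are of RNA, not protein, and carry no test. Which side stands higher depends on the exon lengths used, which join the exons of all annotated transcripts, expressed or not.

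**Figure D3:**
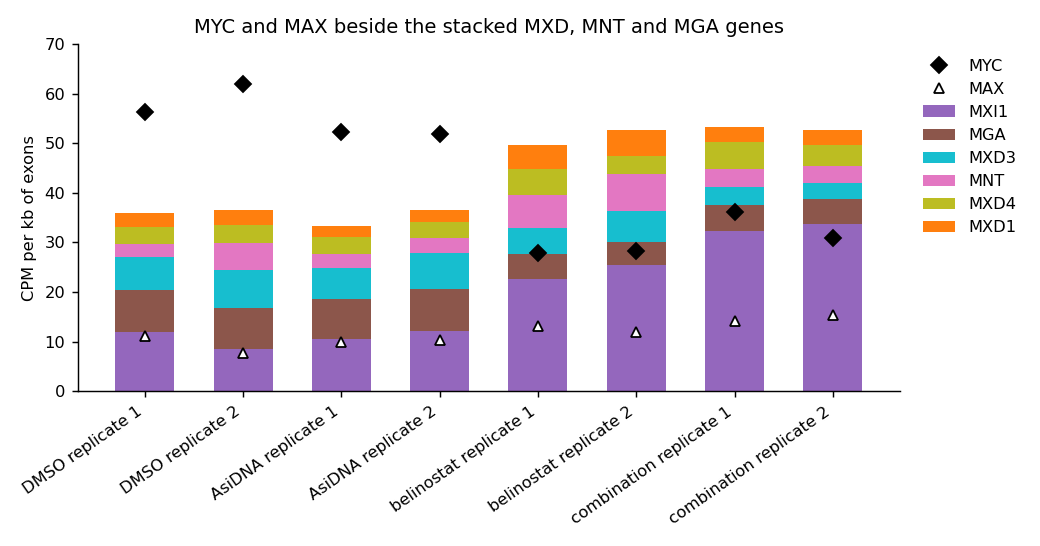
Stacked levels (CPM per kb of exon, vertical axis from 0) of MXI1, MGA, MXD3, MNT, MXD4 and MXD1 in each of the 8 libraries, with MYC as diamonds and MAX as triangles. MYC lies above the stack in the 4 libraries without belinostat and below its top in the 4 with it. The MXI1 block is the tallest of the stack in all 8 libraries and takes 45.5% to 64.0% of it with belinostat.

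Long-term AsiDNA without belinostat changed no member by this test. Against DMSO 0 of 8 were called, where 0.0204% of all tested genes were, and 0 had an unadjusted p under 0.05. DESeq2 called 0 as well. The libraries did not overlap for 3 of 8 members, as for 39.4% of all tested genes. The log2 values ran from -0.43 ± 0.24 for MNT to 0.14 ± 0.16 for MXI1, with edgeR adjusted p from 0.474 to 0.970. The 95% interval was -0.44 to 0.08 for MYC, -0.20 to 0.48 for MXI1 and -0.95 to 0.09 for MNT. These values depended on the DMSO libraries: without DMSO replicate 1, MAX (0.42, edgeR adjusted p = 0.0120), MXI1 (0.42, 0.00933) and MNT (-0.84, 2.66e-06) were called, and without DMSO replicate 2 none was, with MAX at -0.13, MXI1 at -0.08 and MNT at 0.17.

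In combination against belinostat, the other comparison that differs by AsiDNA, MXI1 was higher and MXD1, MXD3 and MNT were lower. This made 1 of 8 higher and 3 lower, where 22% of tested genes were higher and 21.4% lower (43.4% in either direction). MYC, MAX, MXD4 and MGA were not called, with values between 0.09 and 0.25. Without DMSO replicate 1 or 2, MAX was called (0.25, edgeR adjusted p = 0.0375, and 0.24, 0.0418), as was MYC (given above). The 4 calls became 2 without belinostat replicate 2 and 1 without combination replicate 2. The libraries did not overlap for 7 of the 8, as for 77.3% of all tested genes. The belinostat libraries also held the highest MALAT1 and NEAT1 share, 12.2% and 13.4% against 3.12% and 2.06%, and its part in these 4 calls was not tested.

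The difference between belinostat's effects with and without AsiDNA, tested as an interaction, was called by edgeR for 0 of 8 members and 0.00678% of tested genes. DESeq2 also called 0 members but gave no adjusted p for MXD1. By edgeR 2 members had an unadjusted p under 0.05. These were MYC (0.43 ± 0.17, unadjusted p = 0.0264, edgeR adjusted p = 0.178, 95% interval 0.06 to 0.81) and MXD3, given above. So MYC's smaller fall in AsiDNA cells, -0.64 against -1.07, was not shown to differ. Without DMSO replicate 1 the MYC interaction was 0.51 (edgeR adjusted p = 0.0139). Without DMSO replicate 2 the calls were MYC (0.38, 0.0252), MXD3 (-0.78, 0.00277), MXI1 (0.56, 0.00238) and MNT (-1.15, 3.00e-06).

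**Figure D4:**
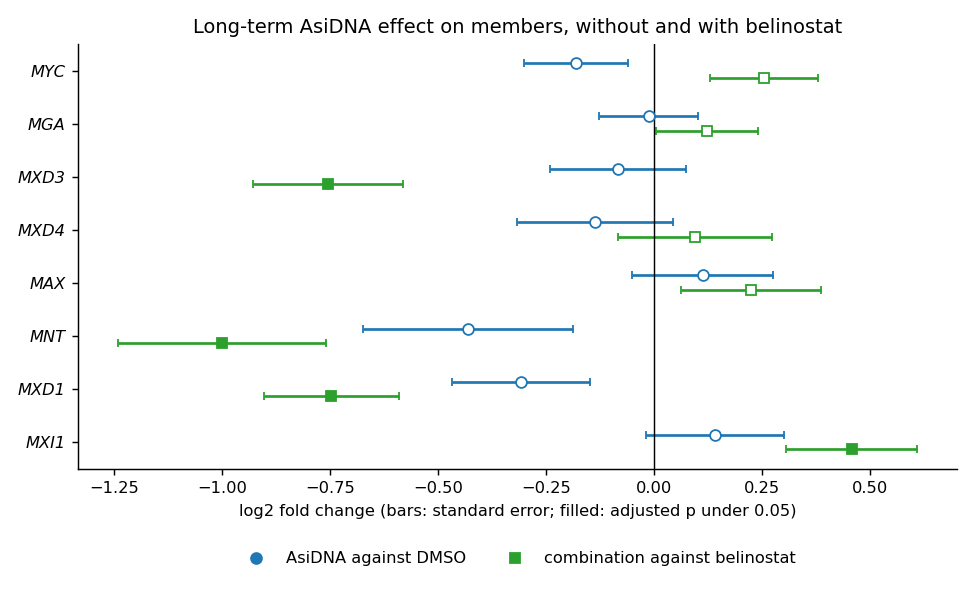
Log2 fold change (horizontal axis) of each tested member in AsiDNA against DMSO (circles) and in combination against belinostat (squares); bars are standard errors and filled marks have an edgeR adjusted p under 0.05. None of the circles is filled, and MXD1, MXD3 and MNT below 0 and MXI1 above 0 are the filled squares.

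Genes that MYC is known to activate were mostly lower with belinostat. Of 63 such genes 62 were tested: 45 fell and 3 rose against DMSO (median -0.89), and 40 fell and 3 rose in combination against AsiDNA (median -0.70). The shares of all tested genes were 27.6% and 21.2% lower. Leaving out any 1 library left 41 to 49 and 33 to 44 that fell. Of the 62, 38 fell in both comparisons and 1, HK2, rose in both, where 2601 and 2471 of all 14741 tested genes did. Nucleolin (NCL), a nucleolar protein of ribosome building, stood at 661 and 535 CPM with DMSO, 663 and 638 with AsiDNA, 119 and 130 with belinostat and 210 and 211 with both agents. NCL fell by 2.27 ± 0.14 (edgeR adjusted p = 5.37e-08) and by 1.62 ± 0.13 (9.57e-07), and the groups did not overlap. The replication helicase subunits MCM5 (-1.61 ± 0.12 and -0.90) and MCM4 (-1.51 ± 0.12 and -0.97) and the mitotic kinase PLK1 (-2.12 ± 0.17 and -1.94 ± 0.16) fell in both. MCM4, MCM5 and PLK1 are also cell cycle genes.

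The targets that rose were named after their values were seen. In belinostat against DMSO they were HK2 (0.72 ± 0.14), the hexokinase of many tumours, PPAN (0.69 ± 0.19) and SLC29A2 (3.22 ± 0.82, at most 25 counts in any library). In combination against AsiDNA they were HK2 (1.00 ± 0.14), EXOSC5 (0.66 ± 0.20) and FBL (0.44 ± 0.16). Without belinostat replicate 1 the first 3 became 1. The second 3 became 1 without either AsiDNA library or combination replicate 1, and 6 without either DMSO library. In combination against belinostat 28 of the 62 were higher and 7 lower (median 0.21), where 22% and 21.4% of tested genes were, and the 7 became 3 without belinostat replicate 1, 1 without belinostat replicate 2 and 2 without either combination library. NCL was 0.76 ± 0.13 higher there. Of the genes printed above with a CACGTG, the polyamine enzymes SRM (-1.87 ± 0.19 and -0.74 ± 0.17) and ODC1 (-1.40 ± 0.16 and -0.89 ± 0.15) fell in both belinostat comparisons, while the DNA repair glycosylase UNG fell against DMSO (-1.13 ± 0.18) but not in combination against AsiDNA (-0.21 ± 0.17, edgeR adjusted p = 0.366). HK2, also printed above with the site, rose in both, as already given. Of the 2 members printed there, MNT rose against DMSO (0.81 ± 0.23) and MXD4 was not called (0.30 ± 0.18). In combination against AsiDNA, MNT was not called (0.24 ± 0.25) and MXD4 rose (0.53 ± 0.18). The share of targets that fell was compared with and without the core, with no test. Of 28 tested targets with it 19 fell against DMSO (67.9%), and of 24 without it 19 fell (79.2%). In combination against AsiDNA the shares were 64.3% and 62.5%, and 3 with the core and 0 without it rose. Among all tested genes, 33.2% of 1304 with the core fell against DMSO and 30.3% of 9158 without it, and 27.1% and 23.1% in combination against AsiDNA.

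**Figure D5:**
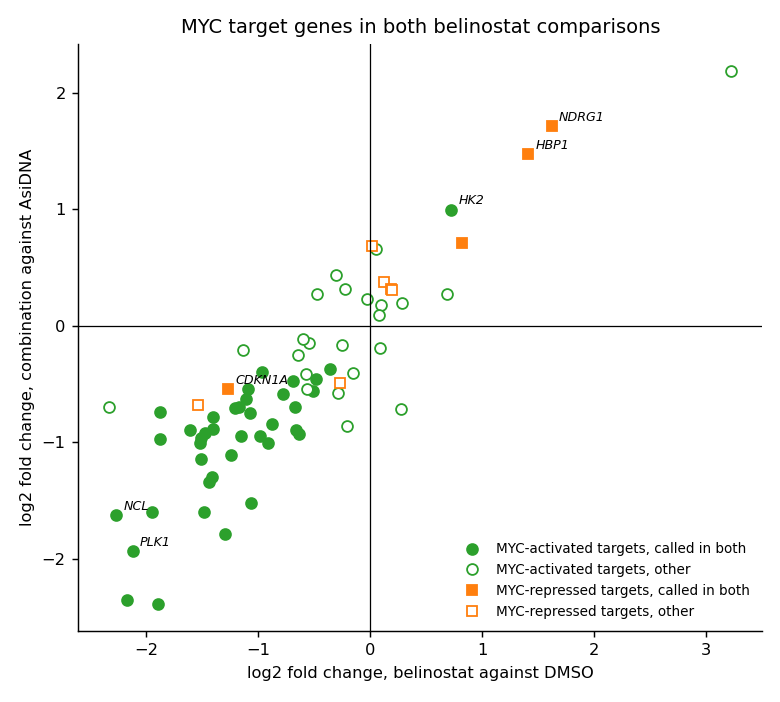
Log2 fold change of MYC-activated targets (circles) and MYC-repressed targets (squares) in belinostat against DMSO (horizontal axis) and in combination against AsiDNA (vertical axis), filled where called in both. Most circles lie at the lower left, NCL at -2.27 and -1.62, while NDRG1 and HBP1 lie at the upper right and CDKN1A at the lower left.

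Genes that MYC is known to repress moved in both directions. Of 15 such genes 10 were tested, and 3 rose and 2 fell against DMSO (median 0.15), while 5 rose and 2 fell in combination against AsiDNA (median 0.34). Among all tested genes 29.8% rose and 27.6% fell in the first comparison and 21.7% and 21.2% in the second, and the first counts were near those shares. With library size alone, or with DESeq2, 3 rose in the second. NDRG1, a stress and hypoxia gene, rose by 1.62 ± 0.15 and 1.71 ± 0.15, and the transcription repressor HBP1 by 1.41 ± 0.14 and 1.47 ± 0.14. CDKN1A, the cell cycle inhibitor p21, went the other way: it stood at 127 and 98.7 CPM with DMSO, 122 and 127 with AsiDNA, 50.1 and 43.4 with belinostat and 87.3 and 83.4 with both agents. CDKN1A fell by 1.27 ± 0.14 (edgeR adjusted p = 7.80e-06) and by 0.55 ± 0.14 (0.00654). The 5 that rose became 2 without AsiDNA replicate 1 and 3 without AsiDNA replicate 2 or combination replicate 2, and the 2 that fell in that comparison became 0 or 1 without any of its 4 libraries. KLF11, a repressor of the Krüppel family, fell against DMSO (-1.54 ± 0.28).

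The MLX branch, in which MLX pairs with the glucose sensors MLXIP and MLXIPL at related sites, had 5 tested genes of which 4 rose and 1 fell in both belinostat comparisons (medians 1.73 and 1.54), where 29.8% and 21.7% of all tested genes rose and 27.6% and 21.2% fell. MLXIPL rose from 0.505 and 0.682 CPM in DMSO to 14.9 and 12.5 in belinostat (4.50 ± 0.36, edgeR adjusted p = 4.08e-07), and from 0.241 and 0.291 in AsiDNA to 3.50 and 3.07 in the combination (3.55 ± 0.52). Its level without belinostat rests on few counts, the lowest library holding 2. MLXIP rose by 1.10 ± 0.15 and 0.76 ± 0.15. The branch's classical targets TXNIP (1.81 ± 0.17 and 1.68 ± 0.17) and ARRDC4 (1.73 ± 0.15 and 1.54 ± 0.15), arrestin proteins that limit glucose uptake, rose, whereas MLX itself fell (-0.53 ± 0.16 and -0.72 ± 0.16). In combination against belinostat MLXIPL (-2.07 ± 0.30) and MLXIP (-0.72 ± 0.15) were lower, 1 of them without combination replicate 2.

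Other E-box factors of the same structural class moved in both directions. Of 8 tested of 9, 4 rose and 2 fell against DMSO, and 3 rose and 1 fell in combination against AsiDNA, where 57.4% and 42.9% of all tested genes were called in either direction. With library size alone or in a fit of the compared groups, 2 rose against DMSO and 2 fell in the other comparison. SREBF1, a regulator of lipid synthesis (1.5 ± 0.15 and 1.19 ± 0.15), and MITF, the melanocyte and lysosome regulator (1.40 ± 0.18 and 1.54 ± 0.19), rose in both, and TFAP4, itself a known MYC target, fell in both (-1.58 ± 0.31 and -2.35 ± 0.35). Named after their values were seen, TFEB (1.10 ± 0.43) rose and TFE3 (-0.43 ± 0.13) fell against DMSO, and SREBF2 (0.43 ± 0.12) rose in combination against AsiDNA. USF1 rose against DMSO (0.60 ± 0.17). Without belinostat replicate 2 the counts against DMSO were 2 higher and 1 lower, and without either DMSO library 2 fell in combination against AsiDNA.

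Partners of the members were described by list. Of 16 genes of the SIN3 corepressor, 6 rose and 3 fell against DMSO, and 6 rose and 1 fell in combination against AsiDNA. Among all tested genes 29.8% rose and 27.6% fell in the first comparison and 21.7% and 21.2% in the second. The scaffold SIN3A rose by 0.69 ± 0.12 and 0.60 ± 0.12 and the subunit ARID4A by 1.71 ± 0.13 and 1.09 ± 0.14, while the histone chaperone RBBP4 fell (-1.05 ± 0.14 and -0.40 ± 0.14). SAP130 (-0.38 ± 0.13) and ING2 (-0.58 ± 0.19), the other genes that fell against DMSO, were named after their values were seen. Of 17 MYC cofactors 4 rose and 7 fell, and 2 rose and 6 fell, to be read against the same shares. With library size alone 1 rose against DMSO, and 1 rose and 10 fell in the other comparison. SMARCB1, the SWI/SNF subunit, fell (-2.17 ± 0.20 and -1.78 ± 0.20), and HCFC1 (-1.08 ± 0.12 and -0.82 ± 0.12) and the MYC-recruiting WDR5 (-0.84 ± 0.14 and -0.79 ± 0.14) fell in both. Among the cofactors that rose, named after their values were seen, were RUVBL2 and CDK9 in both comparisons and ZBTB17 against DMSO. Leaving out 1 library moved these small counts: the SIN3 genes that fell were 6 against DMSO without DMSO replicate 2, and 0 to 3 in the other comparison (0 without any of its 4 libraries, 3 without either DMSO library). Cofactors that rose against DMSO were 1 without belinostat replicate 1 and 2 without belinostat replicate 2 or either combination library, those that rose in combination against AsiDNA were 1 without any library but a DMSO one, and those that fell there were 11 without either DMSO library.

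Of 16 genes that set MYC protein stability 3 rose and 4 fell against DMSO, and 5 rose and 5 fell in combination against AsiDNA. The first counts were at or below the shares of all tested genes (29.8% higher and 27.6% lower, and 21.7% and 21.2% in the second comparison). The 5 that rose became 3 with a replicate block, without a filter or with DESeq2, and 2 with library size alone. CIP2A (-1.80 ± 0.14 and -1.92 ± 0.14) and AURKA (-2.12 ± 0.20 and -1.61 ± 0.19), which are known to stabilise MYC, and the ubiquitin ligase subunit SKP2 (-1.37 ± 0.17 and -0.93 ± 0.17) fell in both. FBXW7, the ligase subunit that marks MYC for breakdown, was named after its values were seen: it rose by 0.61 ± 0.14 and 0.37 ± 0.14. Of 10 partners of MGA in its Polycomb complex 1 rose and 5 fell in each comparison (medians -0.37 and -0.38), where 27.6% and 21.2% of all tested genes fell and 29.8% and 21.7% rose. DESeq2 left 3 that fell in combination against AsiDNA. TFDP1, the dimer partner of E2F proteins, stood at 238 and 219 CPM in DMSO and 55.0 and 50.1 in belinostat and fell by 2.12 ± 0.12 and 1.73 ± 0.12, PCGF6 fell (-1.04 ± 0.25 and -1.13 ± 0.25), and RING1 rose (1.51 ± 0.16 and 1.05 ± 0.16). The 3 stability genes that rose against DMSO became 0 without belinostat replicate 2. The 5 that rose in combination against AsiDNA became 1 without either AsiDNA library, 2 without either belinostat library or combination replicate 1, and 0 without combination replicate 2. The 5 MGA partners that fell there became 2 or 3 without any of the 4 libraries compared.

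Genes with the pattern most like MYC's over the 8 libraries, by Pearson's r of log2 CPM among 11103 genes, were RAVER1 (0.996), MAFF (0.993), C12orf57 (0.991), P3H3 (0.990) and HCFC1 (0.989), the last also a listed cofactor. Those most like MXI1 were GMPPA (0.996), AGFG1 (0.996), NIPSNAP1 (0.995), APLP1 (0.995) and GABARAPL2 (0.993). Within the network MYC and MGA (r = 0.972), MAX and MXI1 (0.931) and MXD1 and MNT (0.896) ran together. MXI1 and MGA (-0.911), MYC and MXI1 (-0.895), MAX and MXD3 (-0.871) and MXD3 and MXI1 (-0.853) ran apart. With 8 libraries in 4 groups these values largely describe the belinostat split and carry no test.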

How the data were processed

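Total RNA was sequenced from 8 libraries of U87 cells, 2 for each of 4 treatments, made with a stranded kit after removal of ribosomal RNA, per the labels' protocols. The deposited values are raw counts per gene that the authors made with cutadapt 1.16, STAR 2.7.0 on GRCh38 and featureCounts 1.6.3, per the submitters' processing notes. The annotation release and strand setting of the counting are not stated in the sources used, so genes that overlap or lie antisense are uncertain.

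Counts were analysed in R 4.3.3 with edgeR 4.0.16: filterByExpr kept 14741 genes, libraries were scaled by TMM, and all 8 libraries were fitted with 1 coefficient per group (4 residual degrees of freedom), so groups share 1 estimate of spread. Quasi-likelihood p-values were adjusted by Benjamini-Hochberg over all 14741 genes. The standard error is the log2 fold change divided by the root of F. Exon lengths and gene positions come from GENCODE, which lacks a few of the table's genes. Alternatives were RLE or library-size scaling, other filters, a stricter threshold, a replicate block, the compared groups alone, leaving out each library, and DESeq2 1.42.0. The code was tested on simulated data.

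The members and lists were chosen with earlier results of these data known. The text names all 10 members and the 5 genes most like MYC and most like MXI1 (mean log2 CPM of at least 2, prior count 2). The rule for lists was up to 4 genes with the smallest adjusted p in belinostat against DMSO and 2 in combination against AsiDNA. Some genes this rule picks, among them ACTL6A, ING1, ARID4B, AXIN1 and CBX3, were left out of the results. Some other genes were named after their values were seen. Genes printed for a CACGTG were chosen by the position of that site. Counting intervals and limits for 0 counts cover counting error only. Single values of some listed genes are not reported here.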

Additional observations from a re-analysis of the deposited data

How the results depend on the processing

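Each of the 8 members was refitted under 17 other settings in each comparison of 2 groups and 16 in the interaction. No setting other than leaving out a library reversed a member's direction. Leaving out 1 library gave, in AsiDNA against DMSO, from -0.13 (without DMSO replicate 2) to 0.42 (without DMSO replicate 1) for MAX, -0.083 to 0.42 for MXI1 and 0.17 to -0.84 for MNT under the same 2 settings. There MGA ran from -0.044 (without DMSO replicate 2) to 0.038 (without DMSO replicate 1) and was 0.017 without AsiDNA replicate 1. MXD3 ran from -0.20 (without AsiDNA replicate 2) to 0.052 (without AsiDNA replicate 1) and was 0.048 without DMSO replicate 2. MXD4 ran from -0.060 (without belinostat replicate 1) to 0.42 (without belinostat replicate 2) in belinostat against DMSO. In combination against belinostat it ran from -0.060 (without belinostat replicate 2) to 0.42 (without belinostat replicate 1) and was -0.0041 without combination replicate 1. The MAX interaction ran from -0.17 (without DMSO replicate 1) to 0.37 (without DMSO replicate 2).

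Under the same omissions 4 to 7 members and 6322 to 10038 genes were called in belinostat against DMSO, 4 to 7 and 4102 to 8247 in combination against AsiDNA, 0 to 3 and 0 to 4955 in AsiDNA against DMSO, 1 to 6 and 3142 to 8477 in combination against belinostat, and 0 to 4 and 0 to 5358 in the interaction. The lone library left in a group was assumed to vary like the others.

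The interaction called 1 gene, but 10 with RLE factors, 157 with library size only, 1549 without a filter, 351 with a filter of 1 CPM in 2 libraries, 365 without the 10 most abundant genes, 0 at an adjusted p under 0.01, 19 with a replicate block and 649 with DESeq2. AsiDNA against DMSO called 3 genes, but 1 with library size only, 520 without a filter, 0 at the stricter threshold, 0 in a fit of these groups alone, 5 with the replicate block and 33 with DESeq2. Combination against belinostat called 6398, and 3804 at the stricter threshold. The cause was not tested. Correlations of replicate differences between groups ran from -0.196 to 0.139. Low correlations cannot exclude pairing, so whether libraries with the same replicate number belong together is not known. The replicate block changed no member's call.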
